A study of Mus musculus with 4 samples.

Results

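Interferon-stimulated genes were described in the liver of ob/ob mice as 42 genes, chosen by gene symbol out of 24346 genes in the expression tables. Their products make up the antiviral and immune programme that interferons switch on, and all 42 were listed above 0 in every library. Liver RNA was sequenced from male ob/ob mice, which lack leptin and become obese, in 4 groups of 1 library each. From 6 weeks of age and for 4 weeks, the mice were given a chow diet (CD), the same diet with 7-ketocholesterol (CD+7KC), a high fat, high cholesterol diet (WD) or that diet with 7-ketocholesterol (WD+7KC). 7-ketocholesterol, or 7KC, is an oxidation product of cholesterol and made up 0.01% of the diets that held it. Cholesterol made up 1% of all 4 diets, so that every group, CD included, was a cholesterol-fed leptin-deficient mouse. The number of mice behind a library is not given in the sources used here.

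Interferons are secreted proteins that cells release on sensing foreign or misplaced nucleic acid, and type I interferons act through the receptor chains IFNAR1 and IFNAR2, while interferon gamma acts through IFNGR1 and IFNGR2. The receptors switch on JAK kinases and STAT proteins. A complex that holds STAT2 and IRF9 then binds the interferon-stimulated response element (ISRE), and pairs of STAT proteins bind the gamma-activated site (GAS), upstream of the genes studied here. In liver, hepatocytes, Kupffer cells, endothelial cells and lymphocytes can all express interferon-stimulated genes.

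Promoter stretches of 9 members are shown because they hold the letters of these elements and show how members of one group share or differ in them. The letters searched were GAAANNGAAA for the ISRE and TTCNNNGAA for the GAS, on both strands, with N for any base, and matches could overlap each other. The sequences are RefSeq promoters of build GRCm38.p6, read 5′ to 3′ on the strand of the gene, with every base of a match in capitals and up to 12 further bases on either side, none of them past the gene start.

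Isg15: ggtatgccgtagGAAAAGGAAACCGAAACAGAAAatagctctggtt
Ifit1: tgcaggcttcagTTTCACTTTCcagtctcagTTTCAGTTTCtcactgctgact
Oas1a: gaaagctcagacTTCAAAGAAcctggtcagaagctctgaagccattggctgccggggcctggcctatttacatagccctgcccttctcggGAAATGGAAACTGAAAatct
Bst2: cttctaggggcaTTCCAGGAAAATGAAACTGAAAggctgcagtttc
Gbp7: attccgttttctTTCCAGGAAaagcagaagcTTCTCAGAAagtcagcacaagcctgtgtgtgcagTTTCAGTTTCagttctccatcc
Igtp: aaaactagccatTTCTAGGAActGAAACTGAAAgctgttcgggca
Irgm2: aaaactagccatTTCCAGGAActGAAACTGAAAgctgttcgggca
Irf1: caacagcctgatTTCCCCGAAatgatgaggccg
Irf8: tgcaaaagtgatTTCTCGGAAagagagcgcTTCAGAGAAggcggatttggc

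The Isg15 stretch (chr4:156200863-156200908, minus strand) lay 90 to 45 bases before the gene start and held 3 overlapping ISRE matches. In Ifit1 (chr19:34640773-34640825, plus strand) there were 2 ISRE matches, both read on the opposite strand. The Oas1a stretch (chr5:120907526-120907635, minus strand) held a GAS match upstream of 2 overlapping ISRE matches. In Bst2 (chr8:71537575-71537620, minus strand) the GAS match ran into the first of 2 ISRE matches, so that the letters of both elements overlapped. Gbp7 (chr3:142530218-142530304, plus strand) held 2 GAS matches and 1 ISRE match on the opposite strand. Igtp (chr11:58199499-58199543) and Irgm2 (chr11:58214890-58214934), neighbours on the plus strand, each held 1 GAS and 1 ISRE match, and their 45-base stretches differed at 1 base, which lay inside the GAS. Irf1 (chr11:53769912-53769944) and Irf8 (chr8:120736175-120736225), both on the plus strand, held GAS matches and no ISRE match, with 1 in Irf1 and 2 in Irf8. By the GENCODE vM21 annotation, 7 of these stretches lay outside any gene, the Irgm2 stretch lay in an intron of a longer Irgm2 transcript, and the Irf8 stretch lay in an intron of the overlapping gene Gm20388.

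Of the 42 members, 31 were found in the promoter table, whose windows run from 250 bases before to 50 bases after the gene start. The ISRE letters were present in 19 of the 31 members (61.3%) and in 1079 of all 27025 genes of the table (3.99%). The GAS letters were present in 11 of the 31 members (35.5%) and in 9.55% of all genes. Both were found in 7 members, the ISRE alone in 12, the GAS alone in 4 and neither in 8. These matches are a description of the letters in this window and do not show binding of a factor in these livers.

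Several members lie side by side in the mouse genome (GRCm38, GENCODE vM21). The annotation calls 40 of the 42 protein-coding, and Oas1b and Mx2, which are defective in some mouse strains, polymorphic pseudogenes. On chromosome 5, Oas2, Oas3, Oas1b and Oas1a lie between 120730333 and 120907521, and Oasl2 and Oasl1 between 114896936 and 114937915. Ifit2, Ifit3 and Ifit1 lie on chromosome 19 between 34550694 and 34650009, and Gbp7, Gbp3 and Gbp2 on chromosome 3 between 142530342 and 142638008. Rsad2 and Cmpk2 are neighbours on chromosome 12 between 26442746 and 26479837, Igtp and Irgm2 on chromosome 11 between 58199556 and 58222782, and Mx1 and Mx2 on chromosome 16 between 97447035 and 97560900. Genes of one cluster are often copies of each other, so that their reads and values are less independent than their number implies.

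Levels were compared as FPKM, that is fragments scaled by transcript length and by the number of mapped fragments, which can be compared between genes as levels per length. The log2 fold change was taken on FPKM + 0.1, so that the change of weakly expressed genes is understated. A gene was counted as above 1 or below -1 by this value. There was no replicate library in any group, so that no difference has a replicate check and no test between groups was possible. Read numbers were estimated from the whole-read steps of low FPKM values, and for 27 members with a single RefSeq mRNA a 95% counting interval (exact, Clopper-Pearson) of the ratio without the added 0.1 was given. Such an interval covers counting error between 2 libraries only and says nothing about the variation between mice. The estimated depth ran from 9404000 fragments in WD to 12104000 in WD+7KC, or from 9.40 to 12.1 reads per kilobase at 1 FPKM. The sum of all FPKM values was 602059 in WD+7KC and between 696062 and 715605 in the others. Rescaling to equal sums (TPM) moved the median of all genes from 0.002 to 0.21 in WD+7KC relative to WD and from 0.003 to 0.20 in WD+7KC relative to CD+7KC, so that small differences against WD+7KC can change sign with the scaling.

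Most members were highest with WD+7KC. The WD+7KC library had the highest value for 32 of the 42 members, where 28.9% of 16408 genes above 0 FPKM had theirs. Of the other 10 members, 6 were highest in WD (Iigp1, Irf9, Usp18, Herc6, Ifi35 and Oas1b), 3 in CD+7KC (Bst2, Ifih1 and Mx2) and 1 in CD (Ifi27). The lowest value was in CD for 22 members, in CD+7KC for 18, in WD for 2 and in WD+7KC for 0. Both WD libraries lay above both CD libraries for 33 members, against 24.0% of all genes, and both lay below for 0 members, against 23.7% of all genes. The exceptions were Ifi27, Ifih1, Oas1a, Oas2, Mx2, Bst2, Iigp1, Eif2ak2 and Trim30a. After rescaling to equal sums, 40 members were highest in WD+7KC (50.8% of all genes) and 35 were higher in both WD libraries than in both CD libraries (31.8% of all genes). In a bulk liver library, fewer cells of a type and less RNA per cell cannot be told apart, and this holds for each level below.

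**Figure D1:**
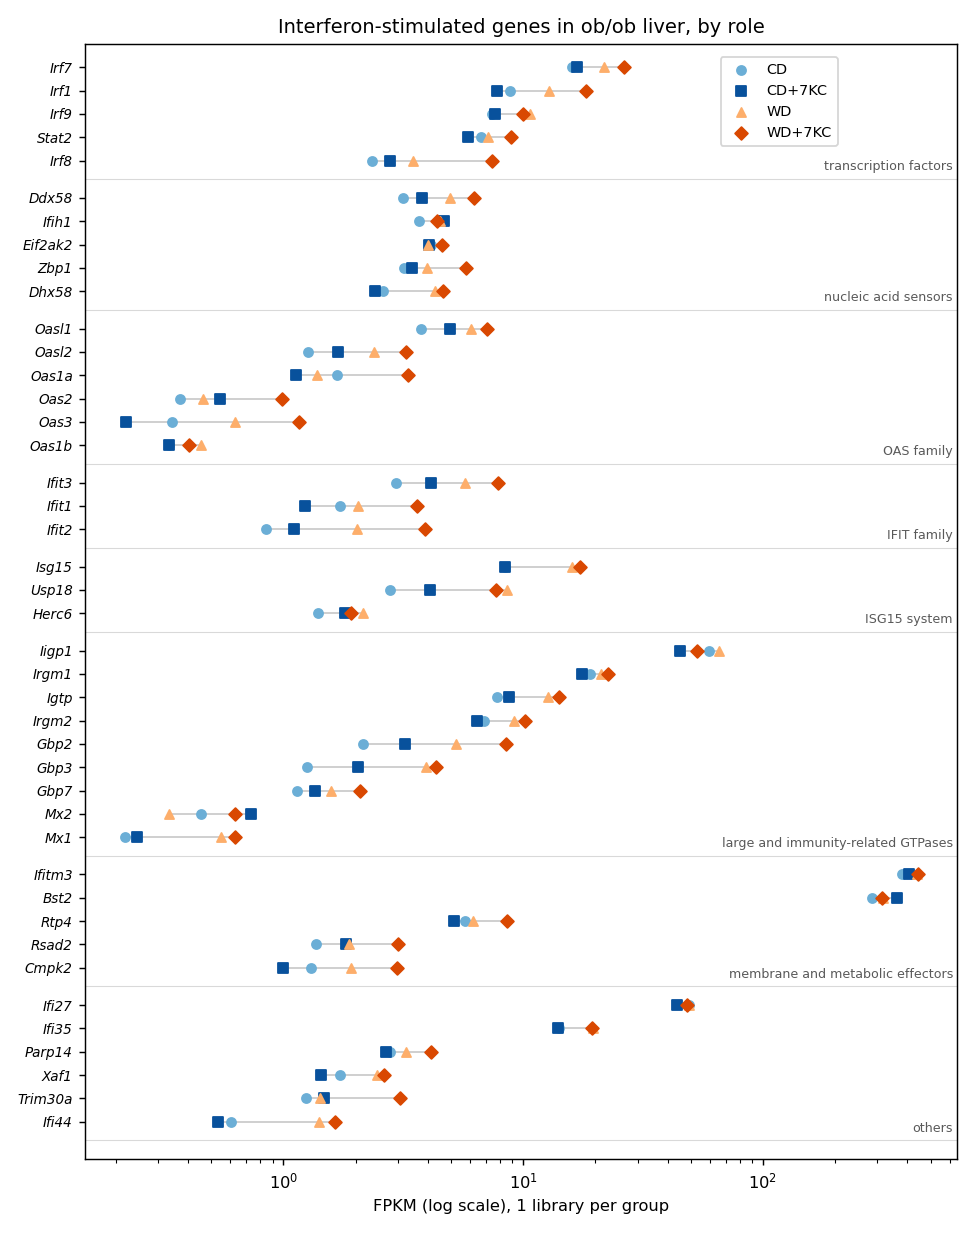
FPKM of the 42 interferon-stimulated genes (log scale), grouped by role, with 1 point for each of the libraries CD, CD+7KC, WD and WD+7KC and a grey line from the lowest to the highest library. WD+7KC is the rightmost point for 32 of the 42 genes, while Ifitm3 and Bst2 stand far above the others in all 4 libraries.

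The first comparison asked how WD differed from CD, the diets without 7KC. Of the 42 members, 38 were higher in WD and 4 were lower, whereas 50.9% of 15597 genes were higher. The median of the members was 0.46 and that of all genes 0.0097. A log2 fold change above 1 was reached by 6 members (Usp18, Gbp3, Gbp2, Ifit2, Ifi44 and Mx1) against 5.31% of all genes, and below -1 by 0 members against 4.38%. Of the genes whose mean reached 1 FPKM, 37 members included, 49.2% were higher and 2.62% were above 1. Of the 27 members with a counting interval, 15 had it above 0 (16.8% of the genes that had one) and 0 below 0 (18.5%). The member with the largest difference was Usp18 at 1.59, and the one at the other end was Mx2 at -0.35, which rested on an estimated 11.0 reads in CD and 7.0 in WD.

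The corresponding comparison with 7KC in both diets, WD+7KC relative to CD+7KC, had 39 members higher and 3 lower (Bst2, Ifih1 and Mx2), where 50.2% of 15898 genes were higher. The median of the members was 0.71, or 0.92 after rescaling, and that of all genes 0.003. Of the members, 13 were above 1 against 8.01% of all genes, and 0 were below -1 against 4.61%. Those above 1 were Irf1, Irf8, Oas1a, Oas3, Ifit1, Ifit2, Isg15, Mx1, Gbp2, Gbp3, Cmpk2, Ifi44 and Trim30a. Of the genes whose mean reached 1 FPKM, 47.3% were higher and 5.11% were above 1. Counting intervals lay above 0 for 22 of 27 members (20.0% of genes with one) and below 0 for 1 member, Bst2 (20.4%). Oas3 was at the upper end with 1.98 and Bst2 at the lower end with -0.21. After rescaling, Ifih1 moved from -0.09 to 0.11 and Bst2 from -0.21 to 0.002, and only Mx2 stayed lower. Of all genes, 10875 of 15898 were higher under that scaling.

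The question of the study was what 7KC adds to each diet. In WD+7KC relative to WD, 33 members were higher and 9 lower, against 50.2% higher among 15753 genes. Their median was 0.25, with the middle of the members between 0.10 and 0.59, and the median of all genes was 0.002. With equal sums their median was 0.47 and 41 of the 42 were higher, with Iigp1 as the exception. Under that scaling 11502 of the 15753 genes were higher too, with a median of 0.21. Members above 1 were Oas1a, Irf8 and Trim30a, 3 of 42 against 6.21% of all genes, and 0 members were below -1 against 2.79%. Of the genes whose mean reached 1 FPKM, 45.4% were higher and 2.72% were above 1. Of the 27 counting intervals, 13 lay above 0 (13.8% of genes with one) and 0 below 0 (16.8%). The 13 were those of Stat2, Ddx58, Oas1a, Oas3, Ifit1, Ifit2, Ifit3, Gbp2, Rsad2, Cmpk2, Rtp4, Trim30a and Parp14.

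In CD+7KC relative to CD, 23 members were higher and 19 lower, against 49.3% higher among 15684 genes. The median of the members was 0.077, or 0.12 with 27 members higher after rescaling, and the median of all genes was -0.001. After rescaling, 9027 of the 15684 genes were higher, with a median of 0.035. A log2 fold change above 1 was reached by 0 members against 3.84% of all genes, and one below -1 by 0 members against 2.91%. Of the genes whose mean reached 1 FPKM, 48.2% were higher and 1.18% were above 1. Counting intervals lay above 0 for 3 of 27 members (Bst2, Gbp2 and Usp18), where 11.1% of genes with an interval had it there, and below 0 for 0 members, against 12.8%. The ends of the range were Gbp3 at 0.66 and Oas1a at -0.53.

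**Figure D2:**
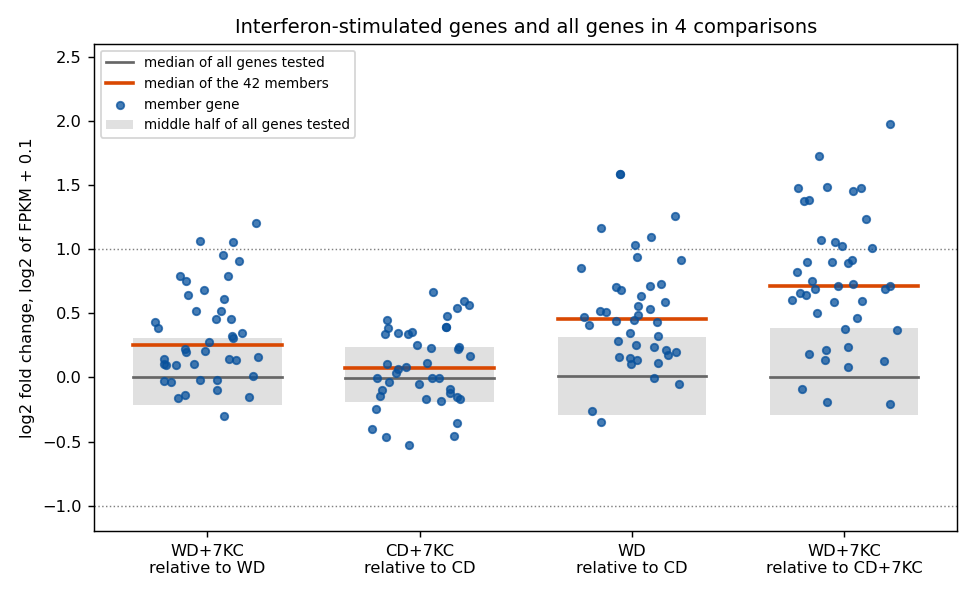
Log2 fold change of FPKM + 0.1 of each interferon-stimulated gene (points) in 4 comparisons, with the median of the 42 genes (orange line), the median of all genes tested (grey line) and the middle of all genes from the lower to the upper quartile (grey box). The median of the members is 0.25, 0.08, 0.46 and 0.71 from left to right, and dotted lines mark 1 and -1.

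Set side by side, the 7KC difference was larger under WD than under CD for 30 of the 42 members, where 49.5% of all genes showed this order. The median over the members of the difference between both log2 fold changes was 0.17, and that over all genes -0.005. Members that were higher with 7KC under both diets numbered 18, and 4 were lower under both. A further 15 were higher with 7KC under WD and lower under CD, with Oas1a, Ifit1, Oas3 and Cmpk2 farthest from 0 in both directions. The opposite order held for 5 members: Usp18, Herc6, Bst2, Ifih1 and Irf9 were lower with 7KC under WD, and higher after rescaling, while under CD they were higher with both scalings. These counts of patterns cross the 33 members higher with 7KC under WD with the 23 higher under CD. The share of all genes with each pattern was not computed, so that no excess of any pattern is claimed. Whether the 7KC difference depends on the diet could not be tested with 1 library per group.

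**Figure D3:**
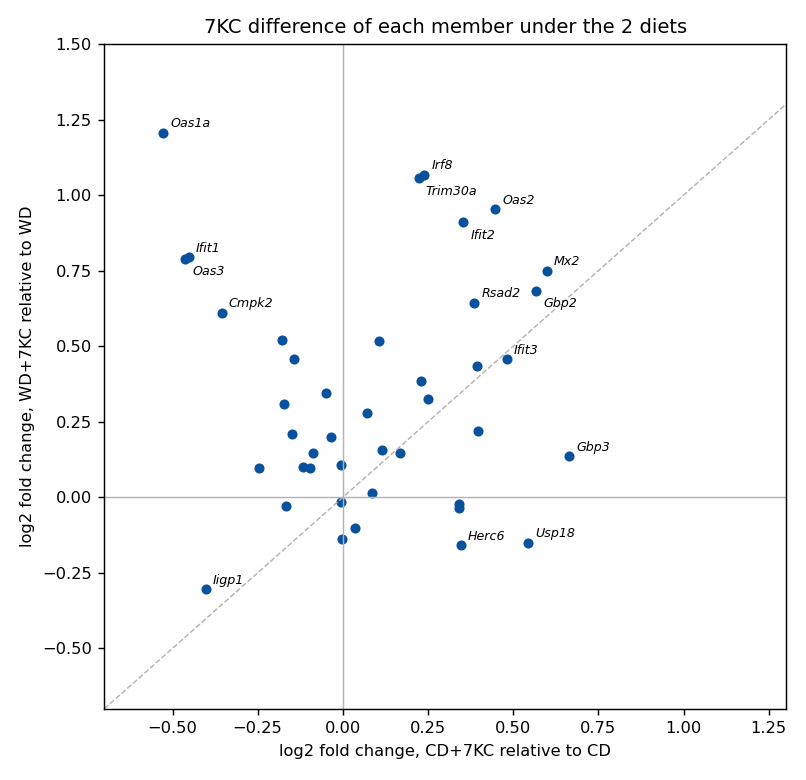
Log2 fold change of FPKM + 0.1 with 7KC under CD (horizontal axis) and under WD (vertical axis) for each of the 42 members, with the line of equal values dashed. There are 30 points above the dashed line, and Oas1a lies farthest from it with -0.53 under CD and 1.21 under WD.

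The transcription factors of the group carry the interferon signal to the genes. Irf7, the factor that amplifies type I interferon expression, was at 15.9 FPKM under CD and 16.7 with 7KC added, and at 21.7 under WD and 26.4 with 7KC added. Irf1, a factor that interferon gamma induces strongly through a GAS, was at 8.79 FPKM under CD and 7.75 with 7KC added, and at 12.8 under WD and 18.3 with 7KC added. Both were higher in each WD library than in each CD library, and the log2 fold change of Irf1 in WD+7KC was 1.23 relative to CD+7KC and 0.52 relative to WD. Irf8, a factor of macrophage and dendritic cell development, was at 2.34 FPKM under CD and 2.77 with 7KC added, and at 3.48 under WD and 7.39 with 7KC added. It was the member of this group that stood out in WD+7KC, with 2.13 times the FPKM of WD. Irf9, the DNA-binding part of the complex at the ISRE, was at 7.42 FPKM under CD and 7.61 with 7KC added, and at 10.7 under WD and 9.94 with 7KC added. Its partner Stat2 was at 6.64 FPKM under CD and 5.89 with 7KC added, and at 7.15 under WD and 8.88 with 7KC added. Irf9 was at -0.10 in WD+7KC relative to WD and at 0.04 in CD+7KC relative to CD, while the Stat2 difference between WD+7KC and WD was 0.31 (counting interval 0.10 to 0.53). All 5 factors were higher in WD than in CD, with a median of 0.52, and in WD+7KC relative to WD 4 of 5 were, with a median of 0.31. Irf7 shares exon bases with Phrf1 on the opposite strand and Irf9 with Rnf31 on the same strand, so that some of their reads may belong to the neighbour.

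The nucleic acid sensors recognise viral or misplaced RNA and DNA. Ddx58, which encodes the RNA sensor RIG-I, was at 3.16 FPKM under CD and 3.78 with 7KC added, and at 4.96 under WD and 6.24 with 7KC added. Dhx58, a regulator of the RIG-I-like receptors, was at 2.59 FPKM under CD and 2.42 with 7KC added, and at 4.30 under WD and 4.61 with 7KC added. Zbp1, a sensor of Z-form nucleic acid, was at 3.17 FPKM under CD and 3.42 with 7KC added, and at 3.98 under WD and 5.75 with 7KC added. These 3 sensors were higher in each WD library than in each CD library, with Ddx58 at 0.64 (counting interval 0.31 to 0.99) and Dhx58 at 0.71 (0.25 to 1.22) in WD relative to CD. Ifih1, another RIG-I-like receptor of this list, was at 3.67 FPKM under CD and 4.67 with 7KC added, and at 4.49 under WD and 4.38 with 7KC added. Eif2ak2, the kinase PKR, which halts translation on binding double-stranded RNA, was at 4.14 FPKM under CD and 4.03 with 7KC added, and at 3.99 under WD and 4.59 with 7KC added. These did not separate the diets: the highest Ifih1 value was in CD+7KC, and the counting intervals of Eif2ak2 included 0 in all 4 comparisons.

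The OAS family makes 2′-5′ linked oligoadenylates that switch on the RNase that degrades viral RNA. Oas1a was at 1.67 FPKM under CD and 1.13 with 7KC added, and at 1.38 under WD and 3.32 with 7KC added. The WD+7KC library stood alone, and the log2 fold change relative to WD, 1.21 (counting interval 0.55 to 2.03), was the largest of all members in that comparison. Oasl1, an OAS-like protein that does not make oligoadenylates, was at 3.74 FPKM under CD and 4.95 with 7KC added, and at 6.05 under WD and 7.05 with 7KC added. Oasl2 was at 1.27 FPKM under CD and 1.70 with 7KC added, and at 2.37 under WD and 3.25 with 7KC added. Both OAS-like genes were ordered CD, CD+7KC, WD and WD+7KC from low to high. The 3 other members had means under 1 FPKM. Oas3 was at 0.220 FPKM in CD+7KC and 1.16 in WD+7KC, or 10.9 and 63.6 estimated reads, and had the largest log2 fold change of any member in that comparison, 1.98. Oas2 ran from 0.372 FPKM in CD to 0.986 in WD+7KC, and Oas1b lay between 0.333 and 0.453 FPKM, with 6.0 to 8.0 reads, and no difference was detectable with so few. Reads of Oas1a can be shared with near-identical Oas1 copies, and how the authors' counting split them is not given in the sources used here.

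The IFIT proteins bind viral RNA and block its translation. Ifit1 was at 1.71 FPKM under CD and 1.23 with 7KC added, and at 2.04 under WD and 3.61 with 7KC added. Ifit2 was at 0.847 FPKM under CD and 1.11 with 7KC added, and at 2.03 under WD and 3.90 with 7KC added. Ifit3 was at 2.94 FPKM under CD and 4.14 with 7KC added, and at 5.71 under WD and 7.87 with 7KC added. All 3 were highest in WD+7KC and all 3 were higher in each WD library than in each CD library. In WD+7KC relative to WD the log2 fold changes were 0.79 for Ifit1 (counting interval 0.32 to 1.35), 0.91 for Ifit2 (0.53 to 1.37) and 0.46 for Ifit3 (0.07 to 0.87). Relative to CD+7KC the median of the 3 was 1.48, the highest of the 8 role groups. Under CD the genes went apart, with Ifit1 at -0.45 and Ifit3 at 0.48 in CD+7KC relative to CD, and the counting intervals of all 3 included 0.

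Isg15 encodes a ubiquitin-like protein that is coupled to other proteins, Usp18 the protease that removes it and restrains interferon receptor signalling, and Herc6 the ligase that couples it in mice. Isg15 was at 8.43 FPKM under CD and 8.40 with 7KC added, and at 16.0 under WD and 17.2 with 7KC added. Usp18 was at 2.78 FPKM under CD and 4.10 with 7KC added, and at 8.56 under WD and 7.70 with 7KC added. Herc6 was at 1.39 FPKM under CD and 1.80 with 7KC added, and at 2.14 under WD and 1.91 with 7KC added. All 3 were higher in each WD library than in each CD library, and in WD relative to CD the values were 0.91 for Isg15 (counting interval 0.40 to 1.45), 1.59 for Usp18 (1.13 to 2.13) and 0.58 for Herc6 (0.15 to 1.09). In WD+7KC relative to WD they were 0.11 for Isg15, -0.15 for Usp18 and -0.16 for Herc6, with counting intervals that included 0. Between the libraries with 7KC added the diet difference was 1.02 for Isg15 (counting interval 0.55 to 1.54) and 0.89 for Usp18 (0.49 to 1.34), but 0.08 for Herc6, with an interval of -0.34 to 0.51 that included 0. In CD+7KC relative to CD, Usp18 was at 0.54 (counting interval 0.01 to 1.12). The median of -0.15 in WD+7KC relative to WD became 0.06 under equal sums. This group and the IFIT group had similar medians in WD relative to CD, 0.91 and 0.94, and different ones in WD+7KC relative to WD, -0.15 and 0.79.

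Guanylate-binding proteins and immunity-related GTPases attack the membranes around intracellular pathogens and are known targets of interferon gamma. Gbp2 was at 2.14 FPKM under CD and 3.21 with 7KC added, and at 5.25 under WD and 8.49 with 7KC added. Gbp3 was at 1.25 FPKM under CD and 2.04 with 7KC added, and at 3.95 under WD and 4.35 with 7KC added. Gbp7 was at 1.14 FPKM under CD and 1.36 with 7KC added, and at 1.58 under WD and 2.09 with 7KC added. All 3 had the order CD, CD+7KC, WD and WD+7KC, and Gbp2 was the only member with a counting interval above 0 in all 4 comparisons: 1.26 in WD relative to CD (0.82 to 1.79), 0.57 in CD+7KC relative to CD (0.08 to 1.11), 0.68 in WD+7KC relative to WD (0.37 to 1.03) and 1.37 in WD+7KC relative to CD+7KC (1.03 to 1.78).

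Among the immunity-related GTPases, Igtp was at 7.74 FPKM under CD and 8.71 with 7KC added, and at 12.7 under WD and 14.1 with 7KC added. Irgm2 was at 6.85 FPKM under CD and 6.44 with 7KC added, and at 9.14 under WD and 10.1 with 7KC added. Igtp and Irgm2, whose promoter stretches were nearly the same, were both higher in each WD library, with 0.71 for Igtp (counting interval 0.41 to 1.02) and 0.41 for Irgm2 (0.16 to 0.67) in WD relative to CD, but they overlap on the same strand and may share reads. Irgm1, a regulator of this family, was at 19.02 FPKM under CD and 17.5 with 7KC added, and at 21.1 under WD and 22.7 with 7KC added. Iigp1 was at 59.7 FPKM under CD and 45.1 with 7KC added, and at 65.6 under WD and 53.1 with 7KC added. Iigp1 was the most abundant GTPase of the list and the member farthest below 0 with 7KC under WD, with -0.40 in CD+7KC relative to CD and -0.30 in WD+7KC relative to WD (-0.09 after rescaling). The dynamin-like antiviral genes Mx1 and Mx2 lay between 0.218 and 0.734 FPKM. Mx1 had 2.52 times the FPKM in WD that it had in CD, but at 0.550 and 0.218 FPKM, with no read estimate or counting interval. Mx2 rested on 7.0 to 17.9 estimated reads and its counting intervals included 0 in all 4 comparisons.

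Ifitm3 and Bst2 encode membrane proteins, which block virus entry and tether budding virus at the cell surface, and they were by far the most abundant members. Ifitm3 was at 382 FPKM under CD and 405 with 7KC added, and at 438 under WD and 442 with 7KC added. Bst2 was at 285 FPKM under CD and 361 with 7KC added, and at 318 under WD and 313 with 7KC added. Together they made up most of the summed FPKM of the 42 members, which was 927 in CD and 1120 in WD+7KC, and 260 and 365 without this pair. Their differences were small and well counted: Ifitm3 was 0.20 higher in WD than in CD (counting interval 0.11 to 0.29), and Bst2 was 0.34 higher in CD+7KC than in CD (0.25 to 0.43).

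The other effectors were at far lower levels. Rsad2, the antiviral enzyme viperin, was at 1.37 FPKM under CD and 1.82 with 7KC added, and at 1.88 under WD and 3.0 with 7KC added. Its genomic neighbour Cmpk2, a mitochondrial nucleotide kinase, was at 1.31 FPKM under CD and 0.999 with 7KC added, and at 1.91 under WD and 2.97 with 7KC added. Rtp4, a chaperone of membrane receptors, was at 5.71 FPKM under CD and 5.16 with 7KC added, and at 6.17 under WD and 8.52 with 7KC added. All 3 were highest in WD+7KC, with log2 fold changes relative to WD of 0.64 for Rsad2 (counting interval 0.23 to 1.13), 0.61 for Cmpk2 (0.15 to 1.14) and 0.46 for Rtp4 (0.06 to 0.88).

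The remaining members have varied roles. Trim30a, a TRIM-family regulator of innate signalling, was at 1.25 FPKM under CD and 1.47 with 7KC added, and at 1.42 under WD and 3.06 with 7KC added. Parp14, an ADP-ribosyltransferase, was at 2.78 FPKM under CD and 2.68 with 7KC added, and at 3.23 under WD and 4.13 with 7KC added. For Trim30a the other 3 libraries lay together and WD+7KC stood apart, at 1.06 relative to WD (counting interval 0.62 to 1.62). Ifi44 was at 0.604 FPKM under CD and 0.535 with 7KC added, and at 1.40 under WD and 1.64 with 7KC added. Xaf1, which promotes cell death, was at 1.72 FPKM under CD and 1.44 with 7KC added, and at 2.45 under WD and 2.62 with 7KC added. Ifi35 was at 14.1 FPKM under CD and 14.0 with 7KC added, and at 19.6 under WD and 19.3 with 7KC added. All 3 were higher in each WD library than in each CD library, and in WD+7KC relative to WD they were at 0.21 for Ifi44, 0.10 for Xaf1 and -0.02 for Ifi35. Ifi27 was at 49.4 FPKM under CD and 44.0 with 7KC added, and at 49.2 under WD and 48.3 with 7KC added, which was the narrowest range of all members, 1.12-fold between the lowest and the highest library.

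The members with and without an ISRE match in the promoter window had medians of 0.41 (n = 19) and 0.54 (n = 12) in WD relative to CD, and of 0.31 and 0.25 in WD+7KC relative to WD. For the GAS the medians were 0.44 with a match (n = 11) and 0.55 without (n = 20) in WD relative to CD, and 0.20 and 0.30 in WD+7KC relative to WD. Members without a match of one element include members with the other, so that these medians overlap in what they describe.

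Other genes of the pathway were taken from separate lists. Of 21 interferon ligand genes, 18 were listed at 0 in all 4 libraries. The others were Ifnk with 0.444 FPKM in CD, Ifnz with 0.0840 FPKM in WD and Ifng with 0.164 FPKM in WD+7KC (2.9, 1.0 and 2.0 estimated reads), and each was at 0 in the other 3 libraries. No fold was given for them, because 3 reads or fewer stood behind each, and differences in ligand expression were not detectable at this depth. The receptor chains were expressed, with Ifnar2 at 62.8 FPKM under CD and 66.9 with 7KC added, and at 60.9 under WD and 61.8 with 7KC added, and with Ifngr2 at 19.1, 15.1, 25.3 and 22.3 FPKM in the same order. Of 6 receptor genes, 5 were higher in WD than in CD (median 0.30), 2 in CD+7KC than in CD (median -0.22), 5 in WD+7KC than in WD (median 0.20) and 5 in WD+7KC than in CD+7KC (median 0.74). Of all genes, 50.9%, 49.3%, 50.2% and 50.2% were higher in these comparisons, in that order.

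A list of 14 genes of innate sensing held adaptors and kinases, but also receptors such as Tlr4 and the factors Irf3 and Irf5. In WD+7KC relative to WD, 12 of the 14 were higher (median 0.47), against 50.2% of all genes. In WD relative to CD, 8 were higher (median 0.08), against 50.9%. In CD+7KC relative to CD, 6 were higher (median -0.04), against 49.3%, and under equal sums 7 were (median 0.003). In WD+7KC relative to CD+7KC, 11 were higher (median 0.17), against 50.2%.

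A further 55 interferon-stimulated genes served as a comparison list, and 54 of them had values in each comparison. In WD relative to CD, 44 were higher (50.9% of all genes) and 7 were above 1 (5.31%), with a median of 0.40. In WD+7KC relative to WD, 40 were higher (50.2%) and 10 were above 1 (6.21%), with a median of 0.34. In CD+7KC relative to CD, 38 were higher (49.3%), with a median of 0.22. In WD+7KC relative to CD+7KC, 47 were higher (50.2%), with a median of 0.60. The most abundant genes of this list were Lgals9, at 421 FPKM in CD and 382 in WD+7KC, and Ifitm2, at 211 FPKM in CD and 305 in WD+7KC.

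Markers of the cells that liver holds were set beside these results. Hepatocyte markers were strongly expressed in all libraries, with a summed level of 43188 to 55897 FPKM over 8 genes. As deposited, it was lowest in WD+7KC and highest in WD. The sum of all FPKM values was lowest in WD+7KC too, and the summed levels of the lists were not rescaled. Of the 8, 0 were higher in WD+7KC than in WD (median -0.33, or -0.11 with 3 higher under equal sums), 1 in CD+7KC than in CD (median -0.18) and 3 in WD than in CD (median -0.05). The 16 Kupffer cell and macrophage markers summed to 288 FPKM under CD and 426 with 7KC added, and to 487 under WD and 920 with 7KC added, and none was at 0 in any library. Of these markers, 15 of 16 were higher in WD than in CD (median 0.74), 14 of 16 in CD+7KC than in CD (median 0.54), and 16 of 16 in WD+7KC than in WD (median 0.94). Their sum rose from CD over CD+7KC and WD to WD+7KC. The summed level of the 40 members without Ifitm3 and Bst2 was 260, 246, 333 and 365 FPKM in the same order, lowest in CD+7KC. This sum leans on Iigp1, the most abundant of the 40, at 59.7 FPKM in CD and 45.1 in CD+7KC. By count, 23 of the 42 members were higher in CD+7KC than in CD, with a median of 0.077. The part of the Kupffer cell and macrophage markers in the result was not tested.

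The 8 liver endothelial markers summed to 74.0 FPKM under CD and 113 with 7KC added, and to 62.0 under WD and 177 with 7KC added, with none at 0. All 8 were above 1 in WD+7KC relative to WD (median 1.54), and 1 of 8 was higher in WD than in CD (median -0.21). In CD+7KC 7 of 8 were higher than in CD (median 0.51), and in WD+7KC 8 of 8 were higher than in CD+7KC (median 0.73). The 9 T and NK cell markers summed to 1.40 FPKM under CD and 2.29 with 7KC added, and to 8.86 under WD and 7.24 with 7KC added. Of these, 8 of 9 were higher in WD than in CD (median 1.70) and 4 of 9 in WD+7KC than in WD (median -0.03). Few reads stood behind these markers: the 7 with an estimate had 6.0 reads or fewer in CD and 20.1 or fewer in any library, with Nkg7 at 1.1 and Cd3e at 1.0 in CD. B cell markers summed to between 1.33 and 3.26 FPKM over 4 genes, and neutrophil markers to between 13.2 and 20.5 FPKM over 5 genes, with Mpo at 0 in all libraries. The plasmacytoid dendritic cell list of 8 holds Bst2, which is a member, and the defining marker Siglech was at 0.262 FPKM or less. Of the 8, 3 had a mean of at least 1 FPKM. In WD+7KC 7 were higher than in WD (median 0.38) and 6 higher than in CD+7KC (median 0.63). In WD 5 were higher than in CD (median 0.20), and in CD+7KC 3 were (median -0.02). Stellate cell markers summed to between 136 and 174 FPKM over 8 genes. The part of each of these cell types in the levels of the members was not tested.

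**Figure D4:**
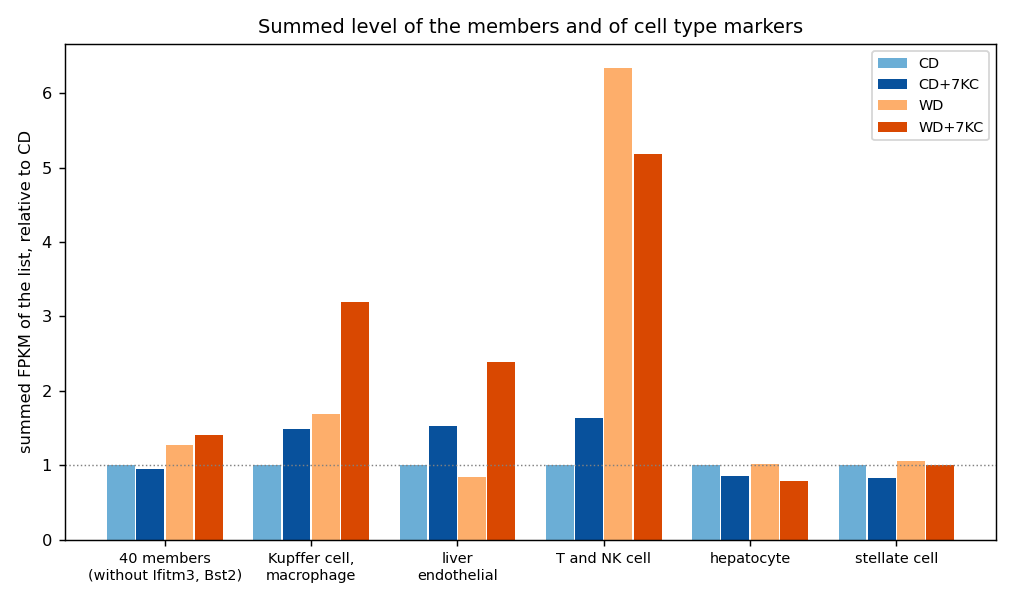
Summed FPKM of 40 members (without Ifitm3 and Bst2) and of 5 cell type marker lists, divided by the sum in CD, with 1 bar for each library and a dotted line at 1. The members reach 1.40 times CD in WD+7KC, the Kupffer cell and macrophage markers 3.20 times, the endothelial markers 2.39 times, and the T and NK cell markers 6.34 times in WD, on few reads.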

How the data were processed

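RNA was sequenced from mouse liver, with 1 library for each diet group of the labels. The authors deposited FPKM values by gene symbol for each library, from single-end reads mapped to mm10 (GRCm38). The submitters' processing notes name TopHat2 2.0.13, Bowtie2 2.2.3, SAMtools 0.1.19 and Cufflinks 2.2.1. The annotation, the handling of multi-mapped reads and the strand option are not given in the sources used here, so that reads of near-identical or overlapping genes may be divided in ways that cannot be checked.

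Log2 fold changes used a pseudocount of 0.1 FPKM over all genes above 0 FPKM in either library. Because whole reads were counted, low FPKM values come in steps, and the size of a step in 14074 genes that have only 1 RefSeq mRNA (transcript length minus 200 bases) gave the depth. Of the low values, 71.1% to 72.1% lay within 0.1 of a whole read number. The 95% intervals cover counting error only. Gene positions and lengths came from GENCODE vM21. The depth estimate and the intervals were tested on simulated data.

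The members and lists were chosen with earlier results of these data known. Members with a mean of at least 1 FPKM were given in every library, the others by range and counts, and in each comparison the members at both ends were named. Counts and medians were given for the lists of receptors, sensing genes and other interferon-stimulated genes. They were also given for hepatocyte, macrophage, endothelial, plasmacytoid dendritic cell, and T and NK cell markers. For B cell, neutrophil and stellate cell markers only sums were given. The pair of highest mean FPKM was named for the list of other interferon-stimulated genes. Ligands, Mpo, Siglech, Tmem173, Tlr7 and receptor chains were named besides, after their values had been seen. Rnf213, Trac and Ly6g were not analysed here, and the list of JAK-STAT signalling genes is not reported here. Alternatives were pseudocounts of 1 and 0.01, a filter of 1 FPKM, equal sums (TPM) and median-ratio scaling. Python 3.11.15, numpy 2.4.6, pandas 2.3.3, scipy 1.17.1 and matplotlib 3.10.9 were used.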

Additional observations from a re-analysis of the deposited data

Results flagged for a closer look

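Bst2 was singled out because its diet difference had opposite signs without and with 7KC. It was 0.16 in WD relative to CD (counting interval 0.06 to 0.25) and -0.21 in WD+7KC relative to CD+7KC (-0.29 to -0.12). Bst2 was at 285 FPKM under CD and 361 with 7KC added, and at 318 under WD and 313 with 7KC added, so that CD+7KC was the highest library. After rescaling to equal sums the values were 0.19 and 0.002. The difference between them was not tested, because each group had 1 library.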

How the results depend on the processing

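With 1 library per group, nothing could be left out in turn, and no paired analysis was possible because the groups compared share no replicate numbers beyond 1. Of 60 values recomputed under 5 alternatives, 53 stayed close to the reported value and 7 moved. Most of the 60 are counts of members, which cannot change sign, and the counts below -1 were 0 under every setting. No median changed sign. Members above 1 in WD+7KC relative to WD numbered 3 as reported, 0 with a pseudocount of 1 and 7 under equal sums, where the median was 0.47 in place of 0.25. In WD relative to CD they numbered 6 as reported and 2 with a pseudocount of 1. In WD+7KC relative to CD+7KC they numbered 13 as reported, 6 with a pseudocount of 1 and 18 under equal sums. The change from 13 to 18 was classed as close. The median of 0.71 in that comparison became 0.59 with a pseudocount of 1 and 0.92 under equal sums. A pseudocount of 1 shrinks every value near 1 FPKM, and many members lie there. Under equal sums 8 members changed sign in WD+7KC relative to WD, 4 in CD+7KC relative to CD, 1 in WD relative to CD and 2 in WD+7KC relative to CD+7KC. Depth limited the members with a mean under 1 FPKM (Oas1b, Oas2, Oas3, Mx1 and Mx2), of which Oas1b and Mx2 rested on fewer than 20 reads in each library.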

Other observations

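Among interferon-stimulated genes outside the 42 members, the chemokine genes Cxcl9 and Cxcl10, whose products attract T cells, were looked at after their values had been seen. Cxcl9 was at 4.30 FPKM under CD and 4.75 with 7KC added, and at 6.44 under WD and 13.9 with 7KC added, and its difference between WD+7KC and WD was 1.10 on the log2 scale (counting interval 0.85 to 1.38). Cxcl10 was at 7.62 FPKM under CD and 7.19 with 7KC added, and at 6.26 under WD and 10.7 with 7KC added, with 0.77 in the same comparison (0.30 to 1.28). Both were highest in WD+7KC, and Cxcl10, unlike Cxcl9, was lowest in WD.

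The STING gene Tmem173, an adaptor of DNA sensing, was at 1.19 FPKM under CD and 1.17 with 7KC added, and at 1.26 under WD and 2.83 with 7KC added, and Tlr7, a sensor of RNA in endosomes, at 0.682, 0.529, 0.676 and 1.55 FPKM in the same order. Their 3 other libraries lay together below WD+7KC, as they did for Trim30a among the members. Tmem173 and Tlr7 were picked by their values and were among the 3 of 14 sensing genes above 1 in WD+7KC relative to WD. The 2 genes of that list that were lower were Myd88 at -0.22 and Mavs at -0.05.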
